A study of Mus musculus with 4 samples.

Results

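The genes described here are 10 products of mucous and goblet cells, chosen by name, with earlier results of these data known. They are the mucins *Muc1*, *Muc2*, *Muc5b* and *Muc13*, the trefoil factors *Tff1*, *Tff2* and *Tff3*, and the goblet cell genes *Agr2*, *Fcgbp* and *Zg16*. Of these, 9 had a row among the 23337 genes of the tables used here and all 9 passed the filter on low counts. *Muc2* had no row and was not analysed here. RNA-seq was done on medullary thymic epithelial cells (mTECs) of C57BL/6 mice aged 4 weeks, with 2 libraries from wild-type (WT) mice and 2 labelled *Sirt6* cKO (genotype label *Sirt6*-/-), called the cKO-labelled libraries (cKO 1 and cKO 2). Per the study's methods, *Foxn1*-Cre deleted loxP-flanked *Sirt6*, a histone deacetylase gene, in thymic epithelial cells, and Cre-negative mice served as controls. The cells were sorted as CD45-, EpCAM+, UEA-1+ and Ly51-. The methods call the 2 samples of each group independent and parallel. How many mice made up a library is not given in the sources used here. The p-values therefore measure only the spread between these libraries, which may be technical.

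Goblet cells are secretory cells of the gut and airway epithelium. They fill granules with gel-forming mucins, which are folded in the endoplasmic reticulum, coated with O-linked sugars in the Golgi and released together with trefoil peptides and granule proteins to form mucus. Membrane mucins such as *Muc1* and *Muc13* stay on the cell surface as part of the glycocalyx. mTECs transcribe many genes of peripheral tissues, alone or as programs that resemble whole peripheral cell types, and display the products to developing T cells.

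The libraries held 61102704 to 65907745 counts and between 18608 and 19475 genes with a count. The targeted gene, *Sirt6*, had counts of 622 and 755 in WT and of 882 and 835 in the cKO-labelled libraries. Its count was thus not lower in the cKO-labelled libraries, and the difference did not pass the test (log2 fold change 0.37, SE 0.32, adjusted p = 0.80 in edgeR's quasi-likelihood test with Benjamini-Hochberg adjustment). A count over the whole gene does not show whether a deleted exon is missing. The 14 mTEC markers had a summed level of 23798 and 27202 CPM (counts scaled to a common library size with TMM factors) in WT and of 26639 and 24462 CPM in the cKO-labelled libraries. In that sum, *Cd74* had 10101 and 12378 CPM in WT and 12169 and 9462 CPM in the cKO-labelled libraries. *H2-Aa* had 7527 and 7123 CPM in WT and 8228 and 7408 CPM in the cKO-labelled libraries. Together they made up most of the sum, so it says little about the other mTEC markers. Of those, 4 were higher and 1 lower at an unadjusted p under 0.05 in edgeR. In a bulk sample, fewer cells of a type and less RNA per cell cannot be told apart.

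Of the 9 genes, *Agr2* was lower in the cKO-labelled libraries, by 3.18-fold in CPM, at an unadjusted p under 0.05 (n = 2 libraries per group, quasi-likelihood test of edgeR across 18547 genes). That is 1 of 9 genes lower, against 3.32% of all genes tested, and 0 of 9 genes higher, against 5.27%. No gene of the 9 passed an adjusted p of 0.05 in edgeR, a call that 0.00539% of all genes, or 1 gene, received. With DESeq2, 1 of the 9 genes, *Agr2*, passed the adjusted p, against 0.823% of all genes called lower by that rule. *Fcgbp* was also below an unadjusted p of 0.05 with DESeq2, where 5.8% of all genes were called higher. The 4 genes *Agr2*, *Tff1*, *Tff3* and *Zg16* were lower without overlap of the groups in CPM, against 20.3% of all genes, and *Fcgbp* was higher without overlap, against 21.6%. Across all genes, 977 were called higher and 615 lower at the unadjusted p, whereas upper quartile normalization gave 751 and 800 and library size alone gave 721 and 838. The median log2 fold change of the 9 genes was -0.23, beside -0.0047 for all genes tested, with 3 genes above 0 and 6 below.

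The genes covered a wide range of levels (plot of TPM by library). In TPM, which scales each library to the same total after dividing by gene length, the WT order was *Fcgbp*, *Muc13*, *Tff3*, *Agr2*, *Muc1*, *Tff1*, *Zg16*, *Muc5b* and *Tff2*. In WT, *Muc1* and *Tff1* had overlapping TPM ranges, and the other neighbours in the order did not overlap. Mean TPM in WT ran from 1.26 for *Tff2* to 613 for *Fcgbp*, and in the cKO-labelled libraries from 1.51 for *Tff2* to 1293 for *Fcgbp*. In those libraries the TPM order was *Fcgbp*, *Muc13*, *Tff3*, *Muc1*, *Tff1*, *Agr2*, *Muc5b*, *Zg16* and *Tff2*, with overlapping ranges for *Tff3* and *Muc1*, for *Muc5b* and *Zg16*, and for *Zg16* and *Tff2*. *Agr2* stood at rank 4 in WT and at rank 6 in the cKO-labelled libraries.

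**Figure D1:**
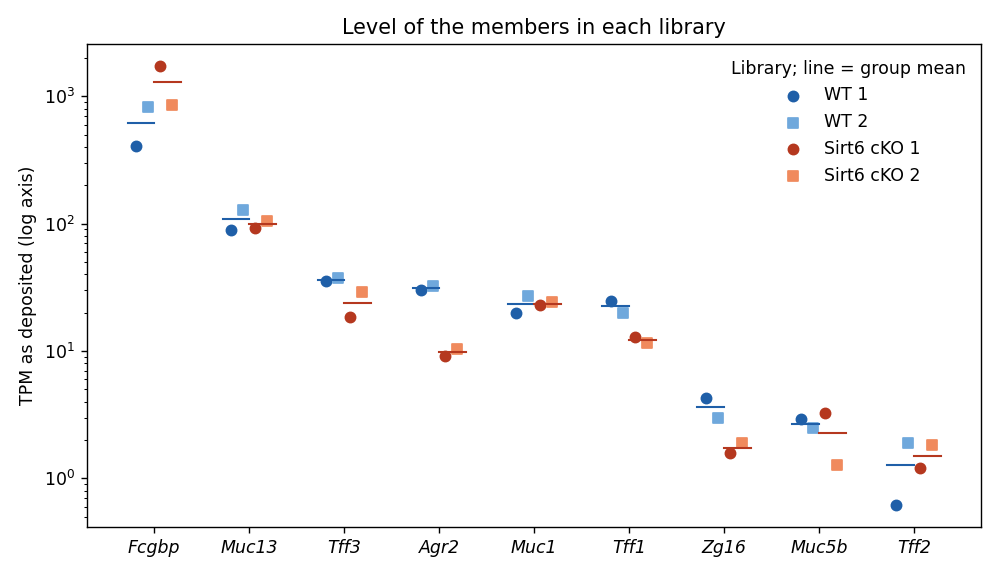
TPM as deposited (log axis) of the 9 genes in each of the 4 libraries, with a line at the mean of each group of 2. *Fcgbp* sits highest in every library, and *Agr2* drops from 30.1 and 32.4 TPM in WT to 9.20 and 10.3 TPM in the cKO-labelled libraries.

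The windows of 250 bases before the RefSeq transcription start are shown for *Agr2*, the gene called lower, for *Fcgbp*, the gene highest in level and in fold change, and for *Muc1*, whose fold change was nearest to 0. The sequences are from RefSeq (GRCm38.p6), 5′ to 3′ on the strand of the gene. Capitals mark matches, on either strand, to the letters TGTTTAC (forkhead core), GAGGAA (core of the PU-box of Ets factors such as SPIB) or TATAAA (core of the element that places the transcription start). These motifs were chosen after results of these data were known.
Agr2, chr12:35992675-35992924, + strand: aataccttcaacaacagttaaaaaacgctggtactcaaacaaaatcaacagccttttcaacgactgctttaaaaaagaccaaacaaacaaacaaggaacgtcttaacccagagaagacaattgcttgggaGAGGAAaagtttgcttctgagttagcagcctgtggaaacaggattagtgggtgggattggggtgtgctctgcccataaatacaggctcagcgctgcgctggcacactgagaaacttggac
Fcgbp, chr7:28070986-28071235, + strand: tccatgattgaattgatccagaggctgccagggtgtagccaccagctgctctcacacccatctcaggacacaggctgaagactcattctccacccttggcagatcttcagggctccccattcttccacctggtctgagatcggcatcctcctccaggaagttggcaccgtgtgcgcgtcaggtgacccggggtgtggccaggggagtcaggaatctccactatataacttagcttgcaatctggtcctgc
Muc1, chr3:89228806-89229055, + strand: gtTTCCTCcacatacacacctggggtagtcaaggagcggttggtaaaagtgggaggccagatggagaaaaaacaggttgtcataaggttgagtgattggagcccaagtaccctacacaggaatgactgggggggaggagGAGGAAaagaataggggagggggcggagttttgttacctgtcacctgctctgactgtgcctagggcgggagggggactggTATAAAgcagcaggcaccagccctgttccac

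The *Agr2* window held GAGGAA once, 120 bases before the start, and its GC content was 44.4%. The *Fcgbp* window held no exact match to the 3 motifs and had a GC content of 56.4%. Near forms, such as the letters tatataa close to the end of that window, were not searched for. *Muc1* had TATAAA 31 bases before the start and GAGGAA at 111 bases and, on the opposite strand, at 248 bases. No match overlapped another motif. Of all 32851 windows of this length, 12.4% held TATAAA, 3.17% TGTTTAC and 23.3% GAGGAA. A match is a run of letters and no measure of binding.

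*Agr2*, at chr12:35992907-36004087 on the plus strand (GRCm38), encodes a protein disulfide isomerase of the endoplasmic reticulum that goblet cells need to process mucins. It had counts of 692 and 702 in WT and of 194 and 230 in the cKO-labelled libraries. Both cKO-labelled libraries lay far below both WT libraries, and replicates of a group lay close together. The CPM was 10.8 ± 0.325 in WT (SD, n = 2), against 3.40 ± 0.263 (SD, n = 2) in the cKO-labelled libraries. The log2 fold change was -1.67 (SE 0.38, 95% interval -2.62 to -0.72), with an unadjusted p of 0.00576 and an adjusted p of 0.54 in edgeR. DESeq2 gave an adjusted p of 0.0338 and a log2 fold change of -1.68. Leaving out each library in turn kept the log2 fold change of *Agr2* between -1.76 and -1.59. By TPM, *Agr2* ranked at percentile 77.8 of all genes in WT and at percentile 58.7 in the cKO-labelled libraries.

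The genes whose log2 CPM, centred on each gene's mean, lay closest to that of *Agr2* over the 4 libraries were *Colec11*, *Gm1821* and *Cyp4b1*. *Colec11*, a soluble collectin, had a largest difference of 0.053 and counts of 80, 78, 20 and 24 in WT 1, WT 2, cKO 1 and cKO 2 respectively. *Gm1821*, a predicted gene model, had a largest difference of 0.072 and counts of 60558, 58745, 17373 and 18767. *Cyp4b1*, a cytochrome P450, had a largest difference of 0.078 and counts of 1151, 1080, 302 and 357. These 3 genes were the ones within 0.1 of *Agr2*. Next to *Agr2* on chromosome 12, its paralog *Agr3*, 43170 bases away, had 6, 0, 4 and 0 counts and was not tested. On the other side of *Agr2*, *Tspan13* had a log2 fold change of -0.41 (SE 0.17, unadjusted p = 0.0581 in edgeR).

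*Fcgbp*, at chr7:28071236-28120862 on the plus strand, encodes the IgG Fc binding protein, a large secreted mucus protein with von Willebrand factor type D domains. It was the most abundant of the 9 genes, and had counts of 96672 and 186086 in WT and of 379264 and 199387 in the cKO-labelled libraries. These were 0.151% and 0.305% of all counts in WT and 0.607% and 0.303% in the cKO-labelled libraries. Library cKO 1 stood highest and WT 1 lowest, while WT 2 and cKO 2 lay close together. In CPM, *Fcgbp* was at 2201 ± 1023 in WT (SD, n = 2), against 4696 ± 2245 (SD, n = 2) in the cKO-labelled libraries, and the replicates differed by 1.98-fold and 2.02-fold. The groups did not overlap in CPM but did so when scaled by library size alone. The log2 fold change of *Fcgbp* was 1.09 (SE 0.45, 95% interval -0.03 to 2.22, unadjusted p = 0.0547, adjusted p = 0.59 in edgeR). DESeq2 gave an unadjusted p of 0.0109 and an adjusted p of 0.208. Without WT 1 the log2 fold change was 0.66 and without cKO 1 it was 0.50. Without WT 2 it was 1.67 (unadjusted p = 0.0157 in edgeR) and without cKO 2 it was 1.49 (unadjusted p = 0.0105 in edgeR), so *Fcgbp* passed the unadjusted threshold in these fits.

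*Fcgbp* lies next to *9530053A07Rik*, a gene 8603 bases downstream that shares sequence with it. Of the 50-base words of the longest *Fcgbp* transcript, 8.55% also occurred in transcripts of *9530053A07Rik*, and the other members shared none with another gene. *9530053A07Rik* had counts of 500 and 848 in WT and of 1903 and 1278 in the cKO-labelled libraries. The groups did not overlap, and library cKO 1 was again the highest and WT 1 the lowest. Its log2 fold change was 1.3 (SE 0.42), with an unadjusted p of 0.0258 and an adjusted p of 0.54 in edgeR. That call was lost without WT 1 (log2 fold change 0.92, unadjusted p = 0.0989 in edgeR), without cKO 1 (log2 fold change 0.93, unadjusted p = 0.133), with limma on log2(TPM + 0.1) (unadjusted p = 0.0576) and with the replicate number as a block (log2 fold change 1.31, unadjusted p = 0.0526). How many counts of *9530053A07Rik* came from the shared sequence was not tested, and its values are uncertain for that reason.

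The trefoil factors are small secreted peptides that act in mucosal repair. They lie together on the minus strand of chromosome 17, *Tff3* at chr17:31125306-31129646, *Tff2* at chr17:31141049-31144282 and *Tff1* at chr17:31161395-31165277. *Tff1*, known from gastric pit cells, had counts of 360 and 270 in WT and of 171 and 163 in the cKO-labelled libraries. Both cKO-labelled libraries were below both WT libraries. The log2 fold change of *Tff1* was -0.86 (SE 0.52, 95% interval -2.17 to 0.46, unadjusted p = 0.157, adjusted p = 0.71 in edgeR), which did not pass the test. Limma on log2(TPM + 1) gave an unadjusted p of 0.0262 for *Tff1*. Exons of *Gm15318*, on the opposite strand, cover 221 bases or 31.4% of the *Tff1* exons, and reads of the pair cannot be told apart if the counting ignored strand. *Tff3*, the trefoil factor of intestinal goblet cells, had counts of 490 and 488 in WT and of 235 and 389 in the cKO-labelled libraries. The groups did not overlap, but library cKO 2 lay closer to WT than to its replicate. For *Tff3* the log2 fold change was -0.61 (SE 0.43, 95% interval -1.69 to 0.48, adjusted p = 0.75 in edgeR). *Tff2*, known from gastric mucous neck cells, had counts of 11 and 32 in WT and of 19 and 31 in the cKO-labelled libraries. The groups overlapped, and the WT replicates differed by 2.99-fold in CPM. *Tff2* had a log2 fold change of 0.25 (SE 1.44, 95% interval -3.38 to 3.87, adjusted p = 0.98 in edgeR), an interval too wide to give a direction, and it turned to -0.35 without WT 1 and to -0.11 without cKO 2. Thus *Tff2*, which lies between *Tff1* and *Tff3*, was the lowest in level and overlapped between the groups, while the genes on both sides of it did not.

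*Zg16*, at chr7:127050156-127087328 on the minus strand, encodes a lectin-like protein of secretory granules and intestinal mucus. It had counts of 82 and 55 in WT and of 28 and 35 in the cKO-labelled libraries. The groups did not overlap, at low counts. The CPM was 1.06 ± 0.275 in WT (SD, n = 2), against 0.505 ± 0.058 (SD, n = 2) in the cKO-labelled libraries. *Zg16* had a log2 fold change of -1.07 (SE 1.11, 95% interval -3.86 to 1.73, unadjusted p = 0.379, adjusted p = 0.85 in edgeR). Limma on log2(TPM + 1) gave an unadjusted p of 0.0397 for *Zg16*.

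The mucins, each on the plus strand, showed no difference that passed the test. *Muc13*, a membrane mucin of the gut at chr16:33794037-33819934, had counts of 8022 and 10757 in WT and of 7590 and 9100 in the cKO-labelled libraries. The groups overlapped, and the log2 fold change of *Muc13* was -0.12 (SE 0.23, 95% interval -0.69 to 0.44, adjusted p = 0.93 in edgeR), turning to 0.13 without WT 2. *Gm15657*, on the opposite strand, overlaps 6.06% of the *Muc13* exon bases. *Muc1*, a membrane mucin of most glandular epithelia at chr3:89229057-89233381, had counts of 1331 and 1729 in WT and of 1415 and 1572 in the cKO-labelled libraries. Both cKO-labelled libraries lay between the WT libraries in count. *Muc1* had a log2 fold change of 0.01 (SE 0.29, 95% interval -0.71 to 0.74, adjusted p = 0.99 in edgeR). Its sign turned without WT 1 (-0.20) and without cKO 2 (-0.04). *Muc5b*, a gel-forming mucin of the airways at chr7:141839070-141873084, had counts of 1311 and 1052 in WT and of 1350 and 561 in the cKO-labelled libraries. The cKO-labelled libraries lay on either side of WT and differed from each other by 2.56-fold in CPM. For *Muc5b* the log2 fold change was -0.23 (SE 0.50, 95% interval -1.49 to 1.02, adjusted p = 0.94 in edgeR) and turned to 0.28 without cKO 2. In the gel-forming mucin cluster of chromosome 7, where *Muc2* spans chr7:141690340-141754693, *Muc5ac* had counts of 1077 and 1702 in WT and of 893 and 626 in the cKO-labelled libraries, with a log2 fold change of -0.81 (SE 0.40, unadjusted p = 0.0917 in edgeR). *Muc6*, at the other end of the cluster from *Muc5b*, had counts of 102 and 301 in WT and of 80 and 102 in the cKO-labelled libraries, and its groups overlapped in CPM.

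**Figure D2:**
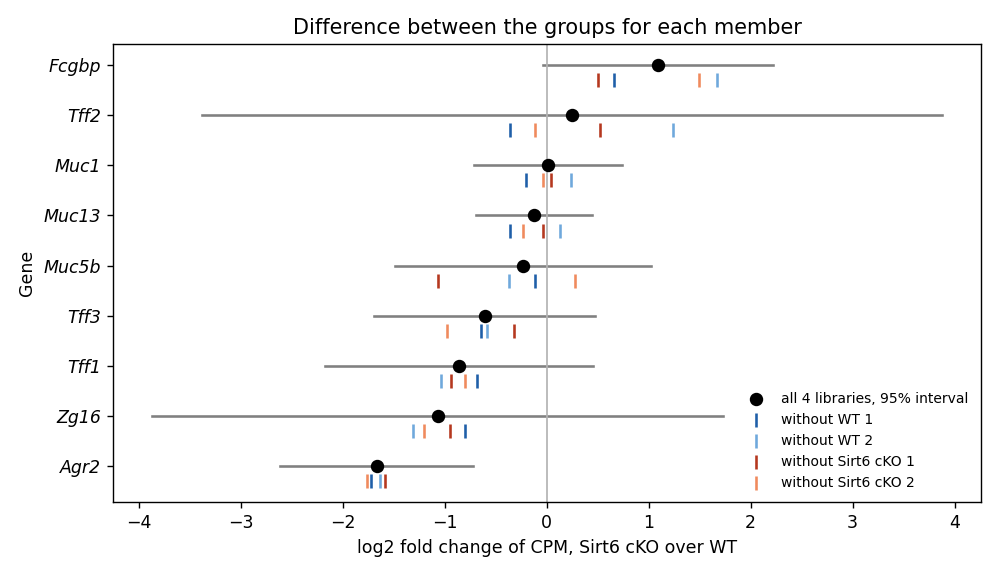
Log2 fold change of CPM, cKO-labelled libraries over WT, for the 9 genes (black points, edgeR) with 95% intervals (grey lines), and the same value with each library left out (coloured ticks). The interval of *Agr2* (-2.62 to -0.72) lies below 0, and the other 8 intervals include 0.

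Related genes were then read from 4 lists. These were chosen with earlier results of these data known, so a share above that of all genes may follow from the choice. The lists held 75 genes, of which 71 were tested. Whether they form a shared program was not tested. At the unadjusted p, 6 were lower and 1 was higher in the cKO-labelled libraries, against the shares of all genes given above, and none passed an adjusted p of 0.05 in edgeR. With DESeq2, 8 were lower and 3 higher at the unadjusted p, against 920 and 1217 of 20997 genes. The 4 secretory products *Reg3g*, *Clca3*, *Itln1* and *Bpifa1* passed the adjusted p as lower, against 0.823% of all genes. This total of 7 was 11 without WT 1, 11 without WT 2 and 11 with DESeq2. Of the 20 other mucosal secretory products tested, 5 were lower, against 3.32% of all genes, and none higher, against 5.27% (plot of secretory genes by library). Their median log2 fold change was -0.77, beside -0.0047 for all genes, with 17 of 20 below 0 and 10 lower without overlap, against 20.3% of all genes. *Reg3g*, an antibacterial lectin, had counts of 29797 and 34557 in WT and of 12900 and 12483 in the cKO-labelled libraries, with a log2 fold change of -1.29 (SE 0.17, adjusted p = 0.38 in edgeR, 4.2e-06 in DESeq2). *Clca3*, a name that RefSeq gives as an older one of the goblet cell protease gob-5, now *Clca1*, had counts of 11617 and 11731 in WT and of 4586 and 6200 in the cKO-labelled libraries. Its log2 fold change was -1.07 (SE 0.20, unadjusted p = 0.00265 in edgeR). The table also has a row named *Clca1*, which is counted in this list and is an older name of *Clca3a1*, another gene of the family, so it may not be the goblet cell gene; it was not called (log2 fold change -0.83, SE 0.40, unadjusted p = 0.0893 in edgeR). *Itln1*, a lectin that binds microbial glycans, had counts of 2612 and 2565 in WT and of 1219 and 991 in the cKO-labelled libraries, with a log2 fold change of -1.17 (SE 0.28, unadjusted p = 0.00692 in edgeR). *Bpifa1*, a secreted airway protein, had counts of 58071 and 67079 in WT and of 33928 and 26476 in the cKO-labelled libraries, with a log2 fold change of -0.99 (SE 0.21, unadjusted p = 0.00409 in edgeR). In these 4 genes each library labelled *Sirt6* cKO lay below both WT libraries. *Bpifb1*, of the same family as *Bpifa1*, had counts of 4317 and 6297 in WT and of 2086 and 2844 in the cKO-labelled libraries, also without overlap. Its log2 fold change was -1.06 (SE 0.30, unadjusted p = 0.0138 in edgeR), and the call was lost without WT 2 (log2 fold change -0.74), without cKO 1 (log2 fold change -0.89) and with limma on log2(TPM + 0.1) (unadjusted p = 0.0536).

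**Figure D3:**
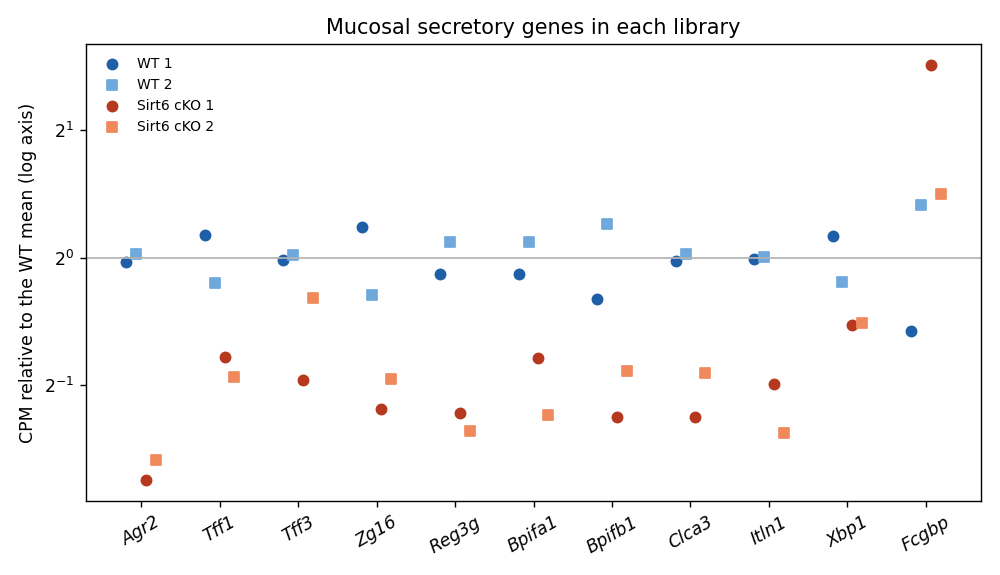
CPM of each library relative to the WT mean (log axis) for *Agr2*, *Tff1*, *Tff3*, *Zg16*, 5 other secretory products, *Xbp1* and *Fcgbp*, scaled with TMM factors. In each gene except *Fcgbp* both cKO-labelled libraries lie below both WT libraries, and in *Fcgbp* both lie above. The members shown are those whose groups did not overlap, and the other genes shown were called lower at the unadjusted p. The pattern therefore follows from the choice of genes. *Muc1*, *Muc5b*, *Muc13* and *Tff2*, whose groups overlapped, are not shown. Of all genes, 20.3% were lower and 21.6% higher without overlap.

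The 18 goblet cell regulators held 1 gene lower and 0 higher, with a median log2 fold change of -0.50 and 14 of 18 below 0. Without overlap, 6 were lower and 2 higher. Of all genes, 3.32% were called lower and 5.27% higher, and 20.3% were lower and 21.6% higher without overlap. *Xbp1*, the transcription factor of the unfolded protein response that secretory cells rely on, had counts of 32226 and 24486 in WT and of 18332 and 19745 in the cKO-labelled libraries. Its log2 fold change was -0.52 (SE 0.18, unadjusted p = 0.0327, adjusted p = 0.55 in edgeR). The call of *Xbp1* was lost without WT 1 (log2 fold change -0.36), without cKO 1 (log2 fold change -0.51), without cKO 2 (log2 fold change -0.54) and with limma on TPM. Of 12 other mucins, 9 were tested and 0 were called in either direction at the unadjusted p by edgeR or by DESeq2, with a median log2 fold change of -0.31. The most abundant of them in CPM were *Cd164*, a sialomucin, and *Muc15*, a membrane mucin. *Cd164* had counts of 56560 and 57561 in WT and of 48843 and 55835 in the cKO-labelled libraries (log2 fold change -0.07, SE 0.14), and its groups overlapped. *Muc15* had counts of 6427 and 7843 in WT and of 7778 and 12471 in the cKO-labelled libraries (log2 fold change 0.55, SE 0.27, unadjusted p = 0.0925 in edgeR).

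Of 24 enzymes of mucin type O-glycosylation, 1 was higher and 0 were lower, with a median log2 fold change of -0.15. Of all genes, 5.27% were called higher and 3.32% lower. Without overlap, 8 of the 24 were higher and 8 lower, against 21.6% and 20.3% of all genes. *Gcnt4*, which adds branches to these sugars, had counts of 1434 and 1038 in WT and of 2362 and 2639 in the cKO-labelled libraries. Both cKO-labelled libraries lay above both WT libraries, with a log2 fold change of 1.07 (SE 0.28, unadjusted p = 0.0107, adjusted p = 0.54 in edgeR), and the call was lost without cKO 2 (log2 fold change 1.02). *Fut1* and *Fut2*, chosen after their values were seen, make the terminal fucose that the sorting lectin UEA-1 binds. *Fut1* had a log2 fold change of 0.05 (SE 0.20) and *Fut2* of -0.47 (SE 0.23, unadjusted p = 0.0879 in edgeR).

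**Figure D4:**
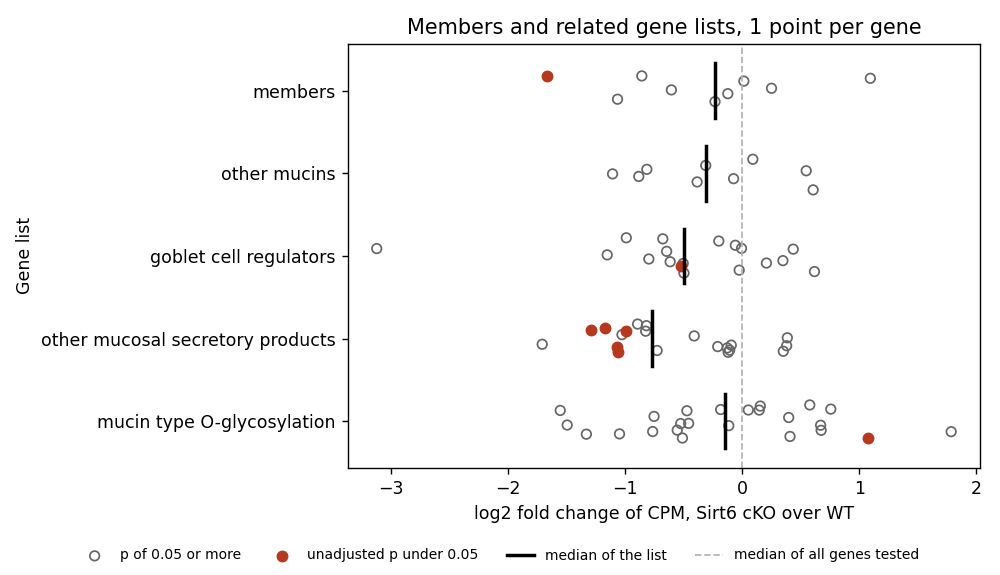
Log2 fold change of CPM, cKO-labelled libraries over WT, for each tested gene of the 5 lists. Filled points passed an unadjusted p of 0.05, black lines are list medians (from -0.77 to -0.15) and the dashed line is the median of all genes tested (-0.0047).

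Lists of cell type markers held calls in both directions. Of all genes tested, 5.27% were called higher and 3.32% lower at the unadjusted p in edgeR. Of 11 tuft-like markers tested, 7 were lower and 0 higher at the unadjusted p, with a median log2 fold change of -0.99, and their summed level was 909 and 948 CPM in WT and 497 and 457 CPM in the cKO-labelled libraries. The 8 markers of macrophages and dendritic cells held 2 lower and 0 higher, and their summed level was 4962 and 3055 CPM in WT and 1997 and 2153 CPM in the cKO-labelled libraries. Most of that sum was *Lyz2*, at 4647 and 2815 CPM in WT and 1778 and 1906 CPM in the cKO-labelled libraries. Of these 8 markers, 4 were lower without overlap, against 20.3% of all genes. *Mrc1*, *Itgax*, *Flt3* and *Siglech* overlapped between the groups. Of the 14 mTEC markers, 4 were higher and 1 lower. In CPM, *Epcam* was 1.39-fold, *Foxn1* 1.78-fold, *Aire* 1.57-fold and *Cd80* 1.92-fold higher, and *Ccl21a* was 5.17-fold lower. The other lists held at most 2 calls each: 2 of 6 cTEC, 2 of 6 microfold-like, 2 of 8 ciliated-like, 1 of 8 enterocyte- and hepatocyte-like and 1 of 6 neuroendocrine-like markers, and 0 of 10 thymocyte, 0 of 5 B cell and 0 of 8 fibroblast and endothelial markers. No marker was at 0 counts in all 4 libraries. The part of these cell types in the levels of *Agr2*, *Fcgbp*, *Reg3g* and the other genes was not tested.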

How the data were processed

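mTECs were sequenced in 2 libraries per group. The authors trimmed the reads, and the submitters' processing notes list HISAT2 2.1.0, StringTie 1.3.3 and mm10; the annotation and the strand setting are not given in the sources used here. They deposited whole-number counts per gene without normalization, and TPM values per gene and library as another table. The last line of each TPM table names no gene, repeats the column total and was left out.

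From the deposited counts, edgeR 4.0.16 in R 4.3.3 was run on all genes (TMM, filterByExpr at 10 counts and 15 in total, glmQLFit, glmQLFTest), with Benjamini-Hochberg adjustment over the 18547 genes tested. Fold changes compare the cKO-labelled libraries with WT. The biological coefficient of variation was 0.557. Alternatives were DESeq2 1.42.0, no filter, the replicate number as a block, scaling by the upper quartile or by library size alone, a filter at TPM over 0.1, limma 3.58.1 on log2(TPM + 1) and log2(TPM + 0.1) (fold changes on that scale, where the pseudocount can shrink the change of low genes), and each library left out in turn. Only the edgeR fit was tested on simulated data. Those were drawn with a cap on the dispersion, so they can vary less than these libraries.

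The members and lists were chosen with earlier results of these data known. Beyond the members, the text names up to 5 genes per direction and list with the smallest edgeR p under 0.05, the 2 genes of highest CPM in a list without calls, the 3 genes most like a called member over the libraries, *Sirt6*, and genes next to a member or sharing exonic sequence with it. Not all neighbours are printed. Positions, exon overlaps and shared words of 50 bases are taken from GENCODE M21 (GRCm38, which is mm10). Sequences are from RefSeq on GRCm38.p6. Figures were drawn with matplotlib 3.10.9. Intervals reflect the spread between 2 libraries per group, with the variance of each gene estimated partly from all genes.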

Additional observations from a re-analysis of the deposited data

How the results depend on the processing

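The single lower call at the unadjusted p, *Agr2*, was 1 of 9 genes under each alternative except limma on log2(TPM + 1) and log2(TPM + 0.1), which called 3 genes. The count of genes higher, 0, was 1 with DESeq2, with no filter and with TPM over 0.1 in all libraries, and ran from 0 to 1 with each library left out. At the adjusted p the count was 1 with DESeq2 and 0 otherwise. The 7 related genes called were 11 with DESeq2 and ran from 8 to 11 with each library left out. The log2 fold change of *Muc1* changed sign with DESeq2 (-0.00015), upper quartile normalization (-0.066) and library size alone (-0.077), and ran from -0.20 to 0.24 with each library left out. The same range was -1.06 to 0.28 for *Muc5b*, -0.36 to 0.13 for *Muc13* and -0.35 to 1.24 for *Tff2*. In these fits the lone library of a group is assumed to vary like the others. The causes were not tested. The widest intervals of the edgeR fit were those of *Tff2* and *Zg16*, the genes with the lowest counts.

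The labels do not say that equal replicate numbers pair the samples. The deviations of same-numbered libraries from their group means had r = -0.054 over 18547 genes. That value cannot exclude a pairing that acts on part of the genes. With the replicate block, 697 genes were higher, 449 lower and 0 passed the adjusted p; *Agr2* was at -1.67 (unadjusted p = 0.0143 in edgeR), with 1 member lower, 0 higher and 8 related genes called.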
